A study of Rattus norvegicus with 12 samples.

Results

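The transcripts of 9 genes that mark microglia and macrophages, *C1qa*, *C1qb*, *C1qc*, *Cd68*, *Laptm5*, *Ncf1*, *Mmp12*, *Aif1* and *Irf8*, were followed through primary cultures of adult rat astrocytes (ASTRs). The genes were given by name, and are 9 of the 17941 genes of the deposited count table and of the 15478 genes with at least 1 count. Cultures came from the brains of young adult female Wistar rats, with no genetic change or treatment given for these samples. Cerebral cortex without meninges gave the grey matter ASTRs (gmASTRs, 6 libraries). Non-cortical tissue without the amygdala gave the mainly white matter ASTRs (wmASTRs, 6 libraries). The latter tissue held white matter tracts such as the corpus callosum, mixed tissue such as hippocampus and thalamus, and the basal ganglia, so that wmASTRs are not cells of white matter alone. Both cultures of an animal were prepared together without a shake-off step and grown for 20 days on poly-L-lysine with at least 1 passage by trypsin, and no sorting of cells before RNA isolation is described. The libraries read the 3′ end of polyadenylated RNA, so that counts do not grow with transcript length. How fully the reads of each gene were caught was not checked, so different genes are compared in counts only.

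Microglia are the resident macrophages of the brain parenchyma, and related macrophages line its vessels, meninges and choroid plexus. Both arise outside the neural lineage, take up debris and dying cells, and are the main source of C1q, the recognition molecule that starts the classical complement pathway. In cultures of ASTRs they are a known companion cell, and their transcripts are used to judge how pure such a culture is. Their lineage genes are switched on by the factor PU.1, which belongs to the Ets family, often together with IRF8.

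Promoter sequences of the RefSeq annotation of the build GRCr8 were matched by symbol for 7 of the 9 genes. *C1qc* and *Aif1* had no entry. C1q is made of the products of *C1qa*, *C1qb* and *C1qc*, which lie next to each other on chromosome 5, between *Ephb2* and *Epha8*. The 250 bases before the start are shown for 4 genes that stand for the roles described here: C1qa at chr5:154419934-154420183 and C1qb at chr5:154407828-154408077, as neighbours that were counted at unlike levels, the lysosomal gene Cd68 at chr10:54882442-54882691, and the protease gene Mmp12 at chr8:12866402-12866651. The first 3 are on the minus strand and Mmp12 is on the plus strand. Each is written 5′ to 3′, with the start site after the last base. Capitals mark the Ets core GGAAGT, the PU.1-type core GAGGAA and the AP-1 site TGANTCA, each searched on both strands.
C1qa: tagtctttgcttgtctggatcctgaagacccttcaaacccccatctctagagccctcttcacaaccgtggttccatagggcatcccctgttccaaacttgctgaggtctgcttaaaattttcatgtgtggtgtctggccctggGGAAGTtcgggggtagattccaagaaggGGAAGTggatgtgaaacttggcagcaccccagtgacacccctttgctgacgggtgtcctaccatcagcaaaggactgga
C1qb: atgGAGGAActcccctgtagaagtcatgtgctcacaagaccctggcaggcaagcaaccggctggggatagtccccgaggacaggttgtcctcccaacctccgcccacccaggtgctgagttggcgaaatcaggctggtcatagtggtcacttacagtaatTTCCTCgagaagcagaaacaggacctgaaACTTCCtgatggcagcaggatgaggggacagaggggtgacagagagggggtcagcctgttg
Cd68: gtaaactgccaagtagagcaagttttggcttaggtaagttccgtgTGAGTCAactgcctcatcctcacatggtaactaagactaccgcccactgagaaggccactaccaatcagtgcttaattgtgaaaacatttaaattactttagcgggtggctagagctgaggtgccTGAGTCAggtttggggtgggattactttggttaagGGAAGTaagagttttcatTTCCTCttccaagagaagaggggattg
Mmp12: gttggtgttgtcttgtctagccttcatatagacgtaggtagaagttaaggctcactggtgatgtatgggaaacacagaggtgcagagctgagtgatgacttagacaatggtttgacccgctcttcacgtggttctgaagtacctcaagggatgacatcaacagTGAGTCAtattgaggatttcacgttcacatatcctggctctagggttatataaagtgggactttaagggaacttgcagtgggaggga

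The Ets core was found in 4 of the 7 promoters (*C1qa*, *C1qb*, *Cd68*, *Laptm5*) and in 19.2% of the 33469 promoters of the annotation. The PU.1-type core was found in 3 of them (*C1qb*, *Cd68*, *Laptm5*) and in 23.3% of all promoters. At least 1 of both was found in 4 of the 7 and in 36.7% of all. *C1qa* holds 2 copies of the Ets core, the nearer beginning 79 bases before the start, and *C1qb* holds 1 on the opposite strand, beginning 61 bases before it. The AP-1 site was found in *Cd68*, with 2 copies, and in *Mmp12*, with 1 copy that begins 87 bases before the start, and in 6.34% of all promoters. *Mmp12* also holds TATAAA, which begins 39 bases before the start and occurs in 12.9% of all promoters. These matches describe the letters in the window and do not show that a factor was bound in these cultures.

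The libraries held 4920488 to 6356487 counts in gmASTRs and 5363330 to 7207118 in wmASTRs. Levels are given as CPM, the usual scaling of counts by the library total. A level of 3 counts, taken as the floor, was worth 0.416 to 0.610 CPM, for counting error only. Among wmASTRs, replicate 4 stood apart. Each of the 9 transcripts was at its highest of all wmASTR libraries there, and calls that were lost without this library are given with and without it. This library was also the highest wmASTR library for *Cspg4* (198.5 CPM). The same held for the ASTR genes *Gfap* (10.6 CPM), *Aqp4* (5.10 CPM), *Mfge8* (4617 CPM) and *Vim* (2439 CPM). For the ASTR gene *Gja1* it was the lowest library of all (2212 CPM, against 3658 to 5766 CPM in the other libraries). For the ASTR genes *Slc1a3* and *Aldoc* it was neither the highest nor the lowest wmASTR library. Among gmASTRs, replicate 5 stood apart, with 87.3 CPM of *Cdh1* and 111.8 CPM of *Cldn11* where the other 5 libraries were at 810.9 to 1315 CPM and 690 to 3774 CPM. Without it, 906 genes in place of 662 passed the test as higher in wmASTRs, and the same number of the 9 transcripts, 8. The libraries of a group come from separate preparations, while the gmASTR and wmASTR cultures of an animal were made together. In such bulk RNA fewer cells of a type and less RNA per cell cannot be told apart.

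The 9 transcripts were a small part of both cultures, and their sum was higher in wmASTRs. Summed over the 9 genes, they made up 17.4 to 96.1 CPM of the gmASTR libraries (median 37.0 CPM, 47.2 ± 33.6 CPM, SD, n = 6) and 140.2 to 508 CPM of the wmASTR libraries (median 193.4 CPM, 245.8 ± 133.1 CPM, SD, n = 6). The lowest wmASTR library thus lay above the highest gmASTR library. Beside wmASTR replicate 4, the highest, the other 5 wmASTR libraries were at 140.2 to 249.9 CPM. Of the 9 transcripts, 8 passed the test as higher in wmASTRs (edgeR's quasi-likelihood test with Benjamini-Hochberg adjustment over 15478 genes, FDR under 0.05), and *Irf8* did not pass it. Of all genes tested, 4.28% passed in this direction, as did 3.93% of the 7814 genes with a mean CPM within the range of the 9. None of the 9 passed as higher in gmASTRs, where 3.46% of all genes did. At an FDR under 0.01, 5 of the 9 passed, against 2.42% of all genes. The names of these 8 genes come from the study's list of genes more abundant in wmASTRs, drawn at a log fold change above 2. Their count, sum, fold changes and separation between the groups are therefore a description and no independent evidence of the direction. The median log2 fold change (log2FC) of the 9 genes was 2.57, against 0.03 over all genes tested. In this text a positive log2FC is a higher level in wmASTRs, and SE is its standard error.

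Without wmASTR replicate 4, 5 of the 9 transcripts passed (*C1qa*, *Cd68*, *Laptm5*, *Ncf1* and *Mmp12*), where 3.53% of all genes did. When gmASTR replicate 5 was left out as well, *C1qc* passed as the sixth, against 5.4% of all genes. When replicate numbers entered as a block, 7 passed, all of the 8 but *Aif1*, where 4.95% of all genes did. All 6 wmASTR libraries lay above all 6 gmASTR libraries for 6 of the 9 genes, against 2.2% of all genes tested, and the reverse held for none of the 9 and 1.79% of all genes. For 3 of these 6 the groups came close to touching. The highest gmASTR and the lowest wmASTR library were at 6.50 and 6.51 CPM for *Cd68*, at 4.67 and 4.77 CPM for *Ncf1*, and at 18.7 and 18.8 CPM for *Mmp12*.

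**Figure D1:**
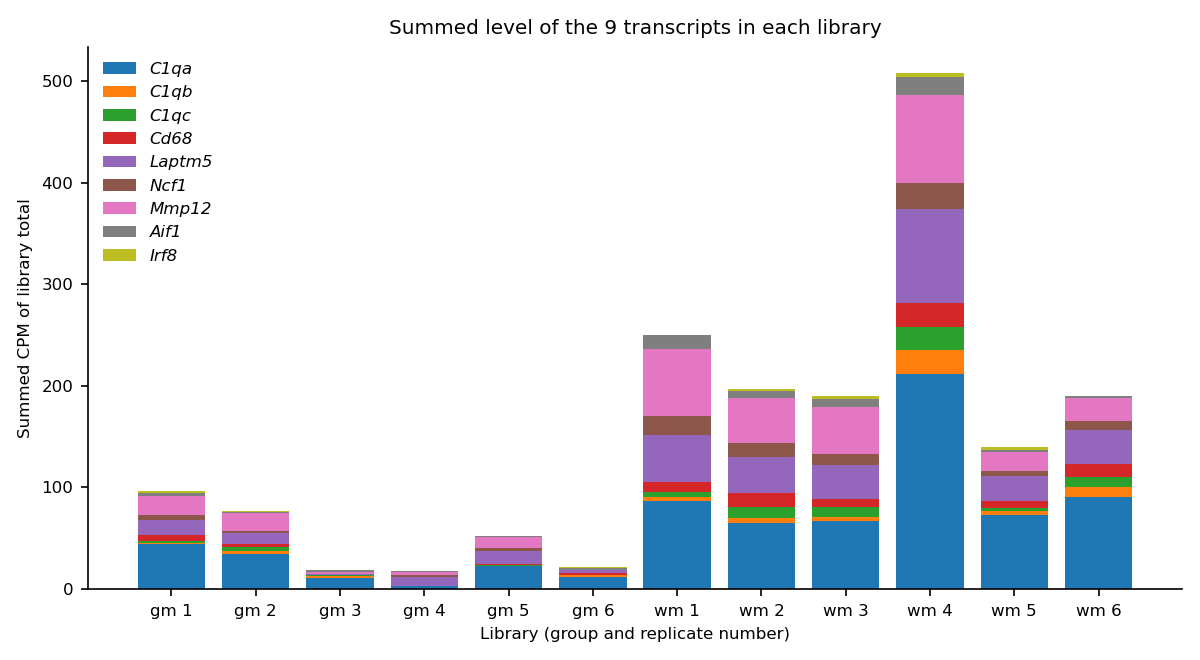
Bars give the CPM of library total of the 9 transcripts, stacked by gene, for each gmASTR (gm) and wmASTR (wm) library. The gmASTR libraries end between 17.4 and 96.1 CPM and the wmASTR libraries between 140.2 and 508 CPM, the highest being replicate 4.

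Among the chains of complement C1q, *C1qa* was by far the most counted. It ran from 2.71 to 44.3 CPM in gmASTRs (median 17.6 CPM) and from 65.0 to 211.9 CPM in wmASTRs (median 79.7 CPM). No gmASTR library reached the lowest wmASTR library, and without wmASTR replicate 4 the highest wmASTR library was at 90.8 CPM. With means of 21.3 ± 15.7 and 99.0 ± 56.3 CPM (SD, n = 6 each), *C1qa* was the only one of the 9 genes above 20 CPM in both groups. Its log2FC was 2.27 (SE 0.40, edgeR FDR = 0.000414) and 1.89 without wmASTR replicate 4 (edgeR FDR = 0.00137, and 1.79e-06 to 0.00356 over its 20 alternatives).

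*C1qb* ran from 0 to 2.77 CPM in gmASTRs (median 1.19 CPM) and from 3.75 to 22.9 CPM in wmASTRs (median 4.52 CPM). The groups did not overlap, and 5 of the 6 wmASTR libraries were at or below 9.32 CPM. The log2FC of 2.77 (SE 0.72, edgeR FDR = 0.0145) became 2.13 without wmASTR replicate 4, where the difference no longer passed (edgeR FDR = 0.126, and 0.000728 to 0.129 over its 20 alternatives). *C1qc* ran from 0 to 4.33 CPM in gmASTRs (median 1.10 CPM) and from 3.18 to 23.2 CPM in wmASTRs (median 9.96 CPM). Here 5 of the 6 wmASTR libraries lay above the highest gmASTR library, and replicate 5, at 3.18 CPM, lay below it. Its log2FC was 2.90 (SE 0.70, edgeR FDR = 0.00861), and it missed the threshold narrowly without wmASTR replicate 4 (2.48, edgeR FDR = 0.0514, and 0.0005 to 0.0514 over its 19 alternatives). Without gmASTR replicate 2, the highest of its group, the log2FC was 3.65.

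As the genes of 1 complex and 1 gene cluster, the C1q chains are set side by side in counts. The ratios need not be those of the RNA, as how fully the reads of each gene were caught was not checked. Summed over a group, *C1qa* was counted 16.2 times as often as *C1qb* in gmASTRs and 12.4 times as often in wmASTRs, and 14.5 and 9.56 times as often as *C1qc*. *C1qc* and *C1qb* were near each other, at a ratio of 1.12 in gmASTRs and 1.29 in wmASTRs. The gmASTR ratios rest on 43 counts of *C1qb* and 48 counts of *C1qc* over 6 libraries. In single libraries with a count of *C1qb*, the ratio of *C1qa* to *C1qb* ran from 4.67 to 54.5 in 5 gmASTR libraries and from 9.26 to 21.3 in 6 wmASTR libraries, and the summed wmASTR ratio was 15.0 without replicate 4. *C1qa* was thus counted more often than *C1qb* in every library, and the ratios of the 2 groups overlapped. Beyond the C1q genes, *Serping1*, which encodes the inhibitor of the C1 proteases, and *Cfd*, which encodes the alternative pathway protease factor D, were the only genes of the complement list of 24 with a name here. *Cfd* was at 0.758 to 15.8 CPM in gmASTRs and at 9.69 to 35.99 CPM in wmASTRs and, named from the same list as the C1q genes, passed as higher in wmASTRs (log2FC 2.06, SE 0.48, edgeR FDR = 0.0069), although the groups overlapped. Without gmASTR replicate 4, the highest of its group, its log2FC was 2.82. *Serping1* was at 46.4 to 104.1 CPM and 58.9 to 121 CPM and did not pass (log2FC 0.53, SE 0.19, edgeR FDR = 0.0997), with an FDR of 0.0294 to 0.193 as each library was left out and of 0.0198 with the replicate number as a block (both edgeR). *C1r*, *C1s* and *C3* were not analysed here.

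**Figure D2:**
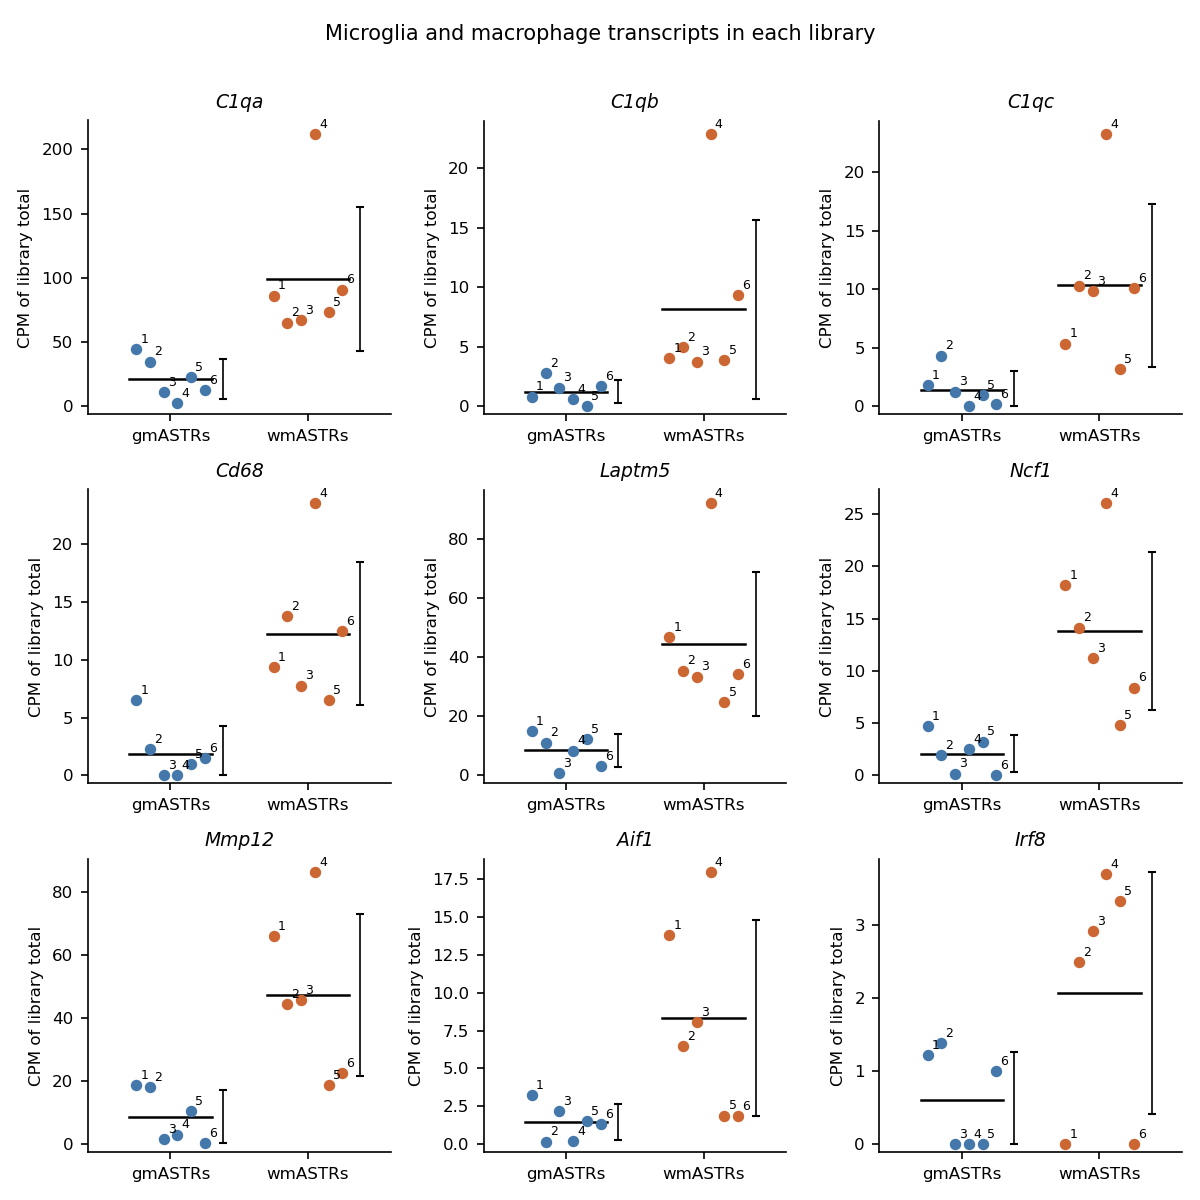
Each panel plots 1 transcript in CPM of library total, with a point per library labelled with its replicate number, a line at the group mean and a bar of 1 SD that is cut at 0. wmASTR replicate 4 is the highest wmASTR library in all 9 panels, and the groups overlap for *C1qc*, *Aif1* and *Irf8*.

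Both lysosomal genes were higher in wmASTRs. *Cd68*, which encodes a heavily glycosylated protein of the lysosomes of macrophages, ran from 0 to 6.50 CPM in gmASTRs (median 1.22 CPM) and from 6.51 to 23.6 CPM in wmASTRs (median 10.9 CPM). It was not counted in gmASTR replicates 3 and 4, and replicate 1 held 32 of the 59 counts of this group. The log2FC was 2.78 (SE 0.70, edgeR FDR = 0.0123) and 2.47 without wmASTR replicate 4 (edgeR FDR = 0.0484, the highest of its 19 alternatives, which began at 0.000738). Without gmASTR replicate 1 the log2FC was 3.74. *Laptm5* encodes a lysosomal membrane protein of the haematopoietic lineage, to which microglia and macrophages belong. It ran without overlap from 0.787 to 14.8 CPM in gmASTRs (median 9.70 CPM) and from 24.7 to 92.2 CPM in wmASTRs (median 34.9 CPM). Its log2FC was 2.46 (SE 0.42), with the smallest FDR of the 9 genes (edgeR FDR = 0.000308), and it passed under each of its 20 alternatives.

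Of the list of 22 lysosome and phagosome genes, 2 more had a name. Their names also come from the study's list of genes more abundant in wmASTRs, which fixed the direction in which they could pass. *Ctss*, the cathepsin of antigen-presenting cells, was at 0 to 2.51 CPM in gmASTRs and at 3.50 to 18.8 CPM in wmASTRs (log2FC 3.04, SE 0.77, edgeR FDR = 0.0128), and its FDR was 0.0612 in edgeR without wmASTR replicate 4. *Lyz2*, the lysozyme of myeloid cells, was at 0 to 16.3 CPM in gmASTRs and at 19.4 to 87.7 CPM in wmASTRs (log2FC 2.30, SE 0.50, edgeR FDR = 0.00381).

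*Ncf1* encodes the organizer subunit of the NADPH oxidase with which phagocytes make superoxide. It ran from 0 to 4.67 CPM in gmASTRs (median 2.21 CPM) and from 4.77 to 26.0 CPM in wmASTRs (median 12.7 CPM). The lowest wmASTR library, replicate 5, lay just above gmASTR replicate 1, and the other 5 at 8.39 CPM and above. The log2FC was 2.79 (SE 0.64, edgeR FDR = 0.00523), and the gene passed under each of its 19 alternatives. Its oxidase partner *Rac2*, a small GTPase of blood cells, was at 0 to 3.29 CPM in gmASTRs and at 0 to 3.17 CPM in wmASTRs, with overlapping groups and no difference that passed (log2FC -0.91, SE 1.195, edgeR FDR = 0.702). Without wmASTR replicate 4 the log2FC of *Rac2* was -1.91 and did not pass either (edgeR FDR = 0.435). *Cyba*, *Cybb* and *Ncf4* were not analysed here.

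*Mmp12*, which encodes the elastase secreted by macrophages, was the second most counted of the 9 genes in wmASTRs. It ran from 0.332 to 18.7 CPM in gmASTRs (median 6.85 CPM) and from 18.8 to 86.4 CPM in wmASTRs (median 45.0 CPM). gmASTR replicates 1 and 2 were near 18 CPM, and wmASTR replicates 5 and 6 were the lowest of their group at 18.8 and 22.6 CPM. The log2FC was 2.48 (SE 0.53, edgeR FDR = 0.00288), and the gene passed under each of its 20 alternatives. The gene of its substrate elastin, *Eln*, named from the study's list of genes more abundant in wmASTRs, was at 31.2 to 105.2 CPM in gmASTRs and at 253.5 to 609.4 CPM in wmASTRs (log2FC 2.47, SE 0.27, edgeR FDR = 1.36e-06). Of the list of 22 metalloproteinases and inhibitors, 3 more had a name. The inhibitor gene *Timp1* was at 119.3 to 226.2 CPM in gmASTRs and at 226.9 to 323.5 CPM in wmASTRs (log2FC 0.65, SE 0.14, edgeR FDR = 0.00369), and *Mmp15* and *Mmp16* did not pass (log2FC -1.27 and -0.84).

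*Aif1* encodes IBA1, the protein by which microglia are most often stained. It ran from 0.173 to 3.25 CPM in gmASTRs (median 1.42 CPM) and from 1.86 to 18.0 CPM in wmASTRs (median 7.27 CPM). wmASTR replicates 5 and 6, at 1.88 and 1.86 CPM, lay within the gmASTR range, while the other 4 lay at 6.48 CPM and above. The log2FC was 2.57 (SE 0.72, edgeR FDR = 0.0242), and *Aif1* was the called gene of the 9 that lost its call most often, passing in 14 of 19 alternatives. Its FDR was 0.0503 when replicate numbers entered as a block, 0.103 without wmASTR replicate 4, 0.0659 without wmASTR replicate 1, 0.0916 without gmASTR replicate 5 and wmASTR replicate 4 together (all edgeR), and 0.0853 in limma-voom. An exact permutation test of the mean CPM over the 924 divisions of the libraries gave p = 0.0173 (two-sided).

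*Irf8*, a transcription factor needed for the microglial and macrophage lineage, was the least counted of the 9 genes and the only one that did not pass. It ran from 0 to 1.39 CPM in gmASTRs and from 0 to 3.70 CPM in wmASTRs, with medians of 0.498 and 2.70 CPM. It was not counted in gmASTR replicates 3, 4 and 5 nor in wmASTR replicates 1 and 6, where 3 counts would have been worth 0.472 to 0.580 CPM. In the other 4 wmASTR libraries it was at 2.49 CPM or above, so that this group fell into libraries with 15 to 23 counts and libraries with none. The log2FC was 1.81 (SE 1.29, edgeR FDR = 0.425, exact permutation test, two-sided, p = 0.0779), and the log2FC of each of the other 8 genes lay within 1 SE of it. *Irf5*, the other gene of this family with a name here and also used as a microglial marker, was at 3.99 to 14.2 CPM in gmASTRs and at 0 to 12.3 CPM in wmASTRs (log2FC 0.06, SE 0.61, edgeR FDR = 0.976). wmASTR replicate 1 was at 0 for both genes.

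**Figure D3:**
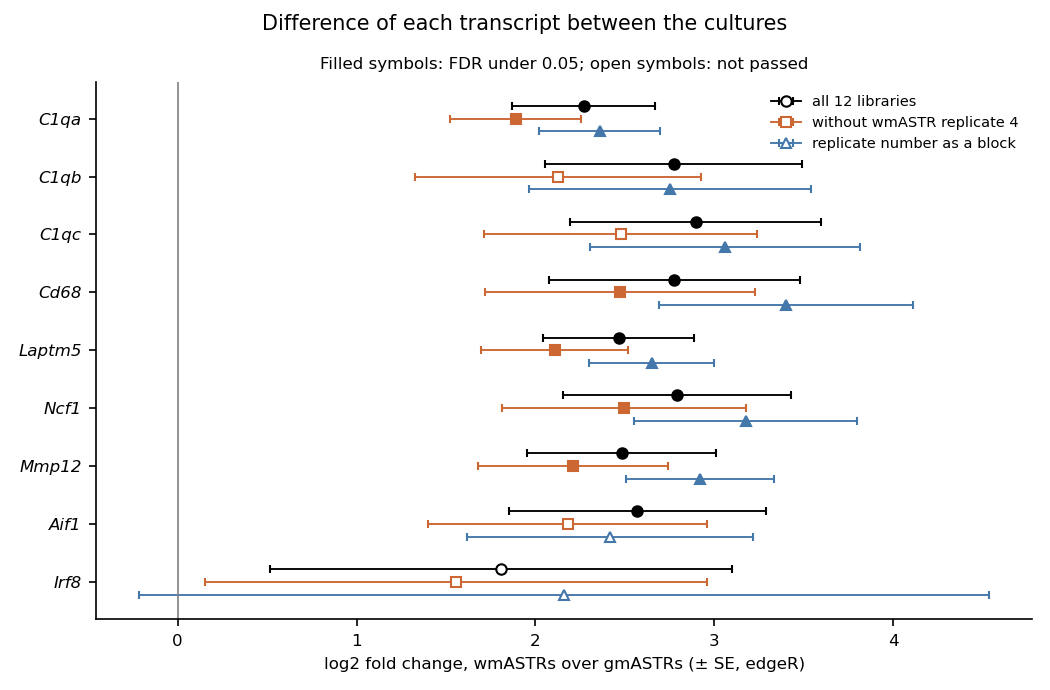
Points give the log2FC of each transcript (wmASTRs over gmASTRs, edgeR) with bars of 1 SE, for all 12 libraries, without wmASTR replicate 4, and with a term for the replicate number. All points lie above 0, from 1.56 to 3.40, and the filled points, which passed the test, number 8, 5 and 7.

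The mean summed level in wmASTRs was 5.21 times that in gmASTRs, and 4.10 times without wmASTR replicate 4. The shares of the single transcripts were taken from the counts summed over each group, of which gmASTR replicates 1 and 2 gave 473 and 443 of the 1532 in gmASTRs. *C1qa* gave 45.6% of their counts in gmASTRs and 40.3% in wmASTRs, *Mmp12* 18.4% and 19.3%, and *Laptm5* 17.6% and 18.1%. The others gave 1.31% to 4.24% in gmASTRs and 0.911% to 5.59% in wmASTRs. The share of *Laptm5* was the steadiest within wmASTRs, at 17.6% to 18.7% in all 6 libraries, whereas that of *Mmp12* ran from 11.9% to 26.5% and that of *C1qa* from 33.0% to 52.2%. wmASTR replicate 4, with its summed level of 508 CPM, had a *Laptm5* share within this narrow range. In single gmASTR libraries the shares spread more, *C1qa* from 15.6% to 59.2%, *Laptm5* from 4.17% to 47.8% and *Mmp12* from 1.55% to 23.7%, on sums of 90 to 473 counts. No test was made of these shares.

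Whether the transcripts followed each other from library to library was examined within each group on log2(CPM + 0.5). Within wmASTRs the median Pearson's r of the 36 pairs was 0.64, with 35 pairs above 0, and within gmASTRs it was 0.35, with 29 above 0. Of the 72 correlations, 11 in wmASTRs and 5 in gmASTRs had an unadjusted p under 0.05, and none passed after Benjamini-Hochberg adjustment over the 72 (exact permutation tests of 720 orders, two-sided, smallest adjusted p 0.1 in wmASTRs and 0.213 in gmASTRs). The wmASTR value rests on replicate 4, without which the median r was 0.17, and the gmASTR value was 0.19 without gmASTR replicate 1. All pairs within a group share the same libraries.

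*Aif1*, *Mmp12* and *Ncf1* followed each other most closely in wmASTRs. Both *Aif1* and *Mmp12* were highest in replicate 4, then in replicate 1, and lowest in replicates 5 and 6 (r = 0.99, exact permutation p = 0.00278, the smallest that 720 orders can give to these data, adjusted p = 0.1; rho = 0.94, exact p = 0.0167). Without the 2 libraries farthest from the median of *Aif1*, replicates 5 and 6, r was 0.98, with replicate 4 still included. *Ncf1* and *Mmp12* gave r = 0.97 (exact permutation p = 0.00278, adjusted p = 0.1, rho = 0.94, exact p = 0.0167), and 0.94 without the 2 farthest libraries, here replicates 4 and 5. In gmASTRs, *Ncf1* and *Mmp12* gave r = 0.86, which fell to 0.24 without the 2 farthest libraries, and *Aif1* and *Mmp12* gave r = -0.04. Among the C1q genes, *C1qa* and *C1qb* gave r = 0.93 in wmASTRs (exact permutation p = 0.0306, adjusted p = 0.213, rho = 0.66, exact p = 0.175). Their r was 0.72 there without the 2 farthest libraries, and 0.13 in gmASTRs. *C1qa* and *C1qc* gave r = 0.67 in wmASTRs and 0.82 in gmASTRs, and *C1qb* and *C1qc* gave 0.80 and 0.37. With *Irf8*, the median r of the 8 pairs was 0.10 in wmASTRs, against 0.78 for the 28 pairs without it, whereas in gmASTRs these medians were 0.40 and 0.34.

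**Figure D4:**
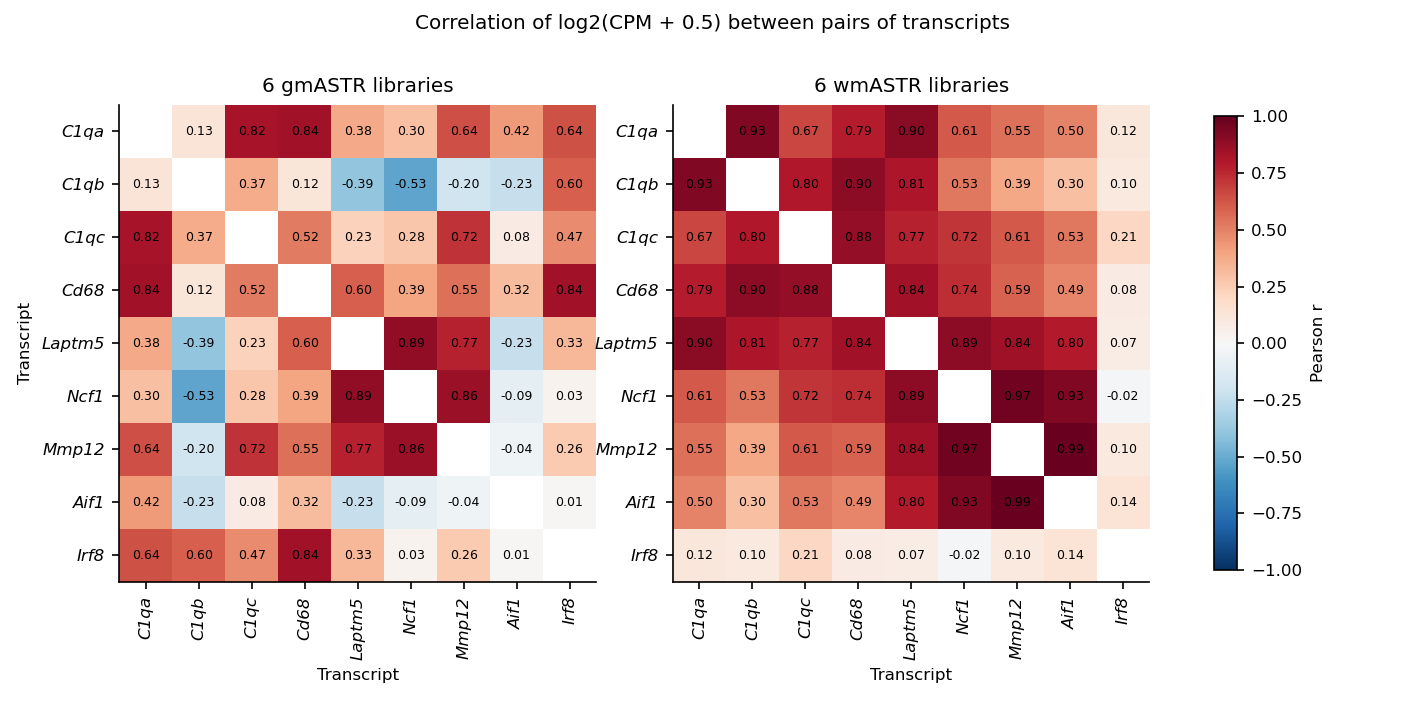
Squares give Pearson's r of log2(CPM + 0.5) between each pair of the 9 transcripts over the 6 gmASTR libraries (left) and the 6 wmASTR libraries (right). In wmASTRs 35 of 36 pairs are above 0 and in gmASTRs 29, and none passed after adjustment over the 72 tests.

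Genes that define microglia in the brain, such as *P2ry12*, *Tmem119*, *Cx3cr1* and *Csf1r*, and the leukocyte genes *Ptprc*, *Itgam* and *Spi1* were not paired with an identifier and were not analysed here, so that microglia and other macrophages cannot be told apart by them. Of the 29 genes of the microglial list, 10 had a name, too few to speak for the list, and 2 of them are not among the 9. *Ctss* passed, and *Olfml3*, a secreted protein enriched in microglia, did not, at 14.0 to 45.4 CPM in gmASTRs and 11.1 to 27.1 CPM in wmASTRs (log2FC -0.63, SE 0.25, edgeR FDR = 0.128), though without gmASTR replicate 5 it passed as higher in gmASTRs (edgeR FDR = 0.0278). Of the 14 genes of border and tissue macrophages, the chemokine gene *Pf4* and *Lyz2* had a name. These and *Nckap1l* could be named because the study lists them as more abundant in wmASTRs, so that their values are a description, beside the 4.28% of all genes that passed in this direction. *Pf4* was at 0.332 to 3.86 CPM in gmASTRs and at 4.34 to 44.5 CPM in wmASTRs (log2FC 2.88, SE 0.59, edgeR FDR = 0.00203), with a log2FC of 2.14 without wmASTR replicate 4 (edgeR FDR = 0.0323). *Nckap1l*, the actin regulator of blood cells and the only other named gene of the leukocyte list beside *Rac2*, was at 0 in 4 gmASTR libraries and at 1.22 CPM at most in this group, and at 1.99 to 14.6 CPM in wmASTRs (log2FC 4.11, SE 0.99, edgeR FDR = 0.00823). *Nckap1l* did not pass without wmASTR replicate 4 (edgeR FDR = 0.0556), and its log2FC was 5.02 without gmASTR replicate 1. *Cd14*, the co-receptor for bacterial lipopolysaccharide on macrophages, was at 3.47 to 9.85 CPM in gmASTRs and at 1.29 to 9.33 CPM in wmASTRs and did not pass (log2FC -0.19, SE 0.54, edgeR FDR = 0.881). All genes of the microglial, leukocyte and macrophage lists that passed as higher in wmASTRs were named from the study's list of genes more abundant there. *Irf8*, *Irf5* and *Cd14* were named from the study's marker lists, and none of them passed.

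**Figure D5:**
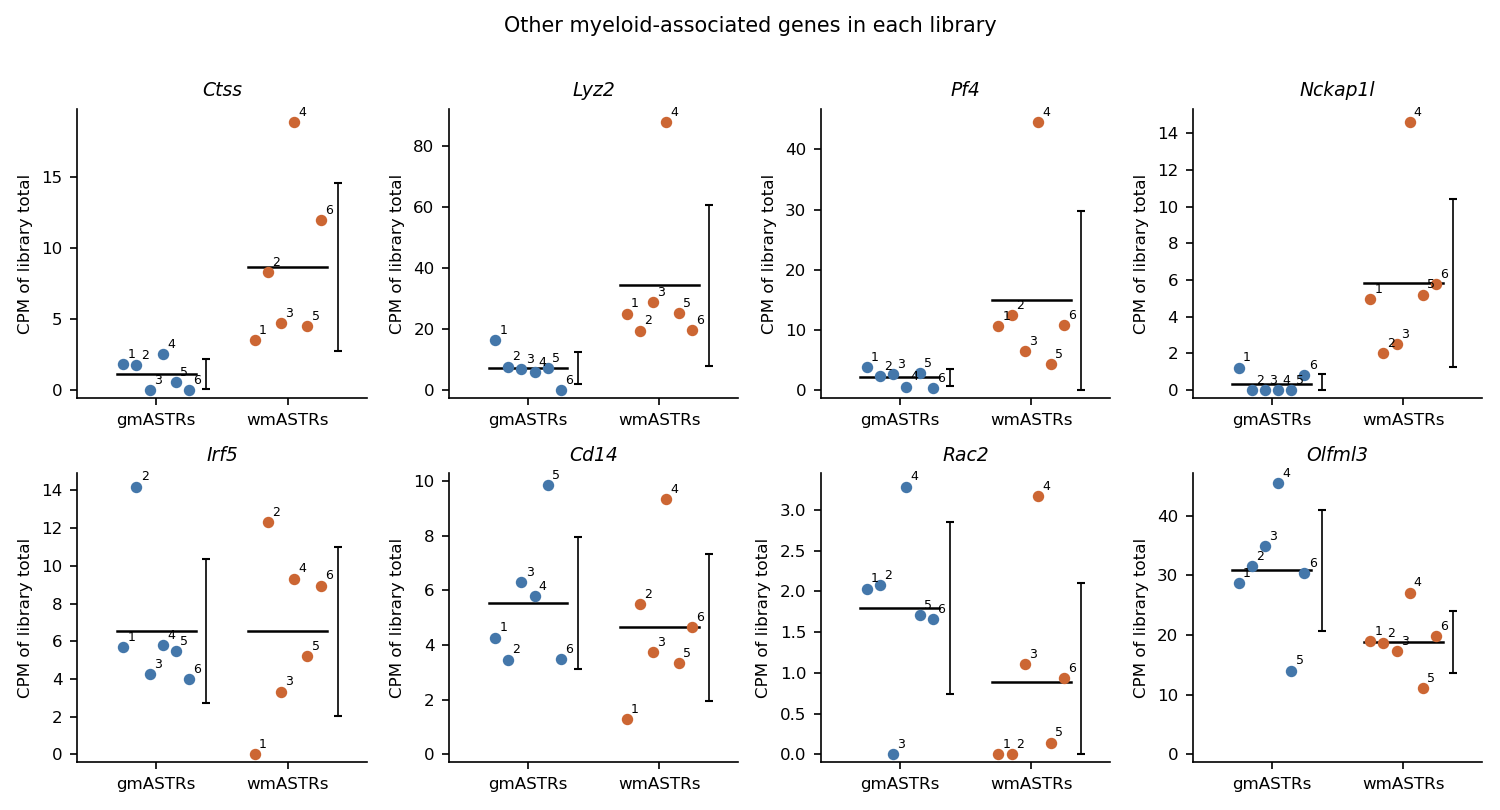
Each panel plots 1 gene associated with myeloid cells that is not among the 9, in CPM of library total, with points, mean lines and SD bars (cut at 0) as in the plot of the 9 transcripts by library. *Ctss*, *Lyz2*, *Pf4* and *Nckap1l* passed as higher in wmASTRs without overlap of the groups, and *Irf5*, *Cd14*, *Rac2* and *Olfml3* overlapped and did not pass.

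Of the 20 genes of phagocytic microglia, 3 had a name. *Spp1*, osteopontin, named from the study's list of genes more abundant in wmASTRs, was at 21.6 to 47.1 CPM in gmASTRs and at 107.4 to 685.9 CPM in wmASTRs (log2FC 3.07, SE 0.36, edgeR FDR = 2.96e-06), and its log2FC was 2.37 without wmASTR replicate 4 (edgeR FDR = 4.98e-08). *Cd9*, a tetraspanin of many cell types, was higher in gmASTRs, at 9.66 to 71.4 CPM against 6.82 to 17.7 CPM (log2FC -1.51, SE 0.34, edgeR FDR = 0.00516). *Apoe*, which ASTRs express as well, did not pass (log2FC 0.43, SE 0.24, edgeR FDR = 0.276), and passed with the replicate number as a block (edgeR FDR = 0.0188) and without gmASTR replicate 5 (log2FC 0.87, edgeR FDR = 0.000248). Of the TGF-beta genes described here, the ligand gene *Tgfb2* passed as higher in wmASTRs (log2FC 1.34, SE 0.20, edgeR FDR = 5.71e-05), and the ligand gene *Tgfb1* and the receptor gene *Tgfbr2* did not pass (log2FC -0.65 and -0.59). *Cd9*, *Olfml3*, *Rac2*, *Mmp15*, *Mmp16*, *Tgfb1* and *Tgfbr2* were named from the part of a list ordered towards gmASTRs, which fixed the sign of their log2FC.

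Of the 9922 genes with a mean of at least 2 CPM outside the 9, 1795 had a name. Among these, the gene whose deviations from the group means followed the mean deviation of the 9 transcripts most closely was *Il1rl1*, the second of all 9922, a receptor gene of the interleukin-1 receptor family (r = 0.94 over 12 libraries, 0.92 without wmASTR replicate 4). Named from the study's list of genes more abundant in wmASTRs, it was at 24.4 to 115.8 CPM in gmASTRs, highest in replicates 1 and 2, and at 136.5 to 395.7 CPM in wmASTRs, highest in replicate 4. The following genes were *Egfl7* (r = 0.84), *Tm6sf1* (0.80), the chemokine gene *Ccl7* (0.78), *Pf4* (0.78), *Tgfb2* (0.78), *Itga1* (0.77), *Grem1* (0.77), *Itgb4* (0.76) and *Eln* (0.75). These values describe the likeness of the patterns over shared libraries and carry no test.

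Markers of other cell types were at unlike levels in the cultures as well. Their counts do not speak for the cell types, as *Aqp4*, *Mbp*, *Mag*, *Esam*, *Myh11*, *Ptgds* and *Ttr* could be named because the study lists them as more abundant in wmASTRs. *Cldn11*, *Myrf*, *Cdh1*, *Foxc1*, *Rarres2*, *Syt1* and *Tek* could be named because they lie in the part of a list that is ordered towards gmASTRs. Of all genes, 4.28% passed as higher in wmASTRs and 3.46% as higher in gmASTRs. Of 13 ASTR markers, 7 had a name, with a summed level of 7099 to 10094 CPM in gmASTRs and 8200 to 10647 CPM in wmASTRs, and 4 passed as higher in wmASTRs. *Gfap* had 0 counts in all gmASTR libraries and 1.39 to 10.6 CPM in wmASTRs, and *Aqp4* was at 0 in 4 gmASTR libraries. Of the oligodendrocyte markers described here, *Mbp* and *Mag* passed as higher in wmASTRs and *Cldn11* and *Myrf* as higher in gmASTRs, with *Mbp* at 0 in 3 gmASTR libraries. The endothelial markers (3 of 9 named) summed to 7.92 to 28.2 CPM in gmASTRs and 29.1 to 315.2 CPM in wmASTRs, where *Esam* passed and carried most of the sum, at 293.2 and 220.2 CPM in wmASTR replicates 4 and 6. The other endothelial genes, *Egfl7* and *Tek*, did not pass (log2FC 0.46 and -0.69, edgeR FDR = 0.594 and 0.736). The mural markers (1 of 8 named, *Myh11*) were at 26.4 to 164.8 CPM and 361.4 to 729.4 CPM, where *Myh11* passed. The leptomeningeal markers (5 of 10 named) summed to 482 to 2018 CPM and 271.5 to 608.1 CPM, with *Ptgds* higher in wmASTRs and *Cdh1* and *Foxc1* higher in gmASTRs. The choroid plexus and ependymal markers (2 of 8 named) summed to 32.8 to 72.5 CPM and 37.7 to 390.9 CPM, with *Ttr* higher in wmASTRs and *Rarres2* higher in gmASTRs. The neuronal markers (2 of 7 named) summed to 14.9 to 34.5 CPM and 13.1 to 39.4 CPM, with *Tubb3* higher in wmASTRs and *Syt1* higher in gmASTRs. Of the oligodendrocyte progenitor markers (2 of 6 named, 75.6 to 120.8 CPM and 117.2 to 250.3 CPM), *Cspg4* passed as higher in wmASTRs. Some of these calls were lost when 1 library was left out. *Tubb3* did not pass without wmASTR replicate 4 (edgeR FDR = 0.062), *Ptgds* without wmASTR replicate 4 (0.0552) or 1 (0.106), *Slc1a3*, 1 of the 4 ASTR markers, without wmASTR replicate 1 (0.0512), *Myrf* without gmASTR replicate 2 (0.053), and *Rarres2* without gmASTR replicate 4 (0.0545) or 6 (0.0504). The part of these cells in the levels of the 9 transcripts was not tested.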

How the data were processed

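Single-end 3′ mRNA libraries (QuantSeq, RIN above 7.9) of 12 cultures were used. The authors checked the reads with fastQC, aligned them with HISAT (0.1.5) to the rat genome with 2 mismatches allowed, used SAMtools (1.2) for sorting and HTSeq (0.6.1p1) for counting per Ensembl gene, without strand. They deposited raw read counts, 1 column per library, for 17941 genes and for 9394 genes left after a filter on low values, a table that holds 4 of the 9 genes described. The unfiltered counts were therefore used. Reads of overlapping or near-identical genes cannot be told apart, and the use of molecular identifiers is not given in the sources used here. The processing notes list a mouse build although the identifiers are those of rat, so no coordinates of the deposited files were used, and promoter coordinates are those of RefSeq (GRCr8).

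Gene names came from the study's supplementary lists, 2005 by identifier and 86 by 12 CPM values, which are mostly of genes with a large difference. Genes without a name were tested but not named. CPM of library totals, edgeR (4.0.16) in R (4.3.3) with TMM and region as the factor, the quasi-likelihood test, Benjamini-Hochberg adjustment and a prior count of 0.125 were computed here, after the fit was tested on simulated data. The standard error is the log2 fold change divided by the root of F. Correlations, permutation tests and plots used Python (3.11.15), numpy (2.4.6), pandas (2.3.3), scipy (1.17.1) and matplotlib (3.10.9). Alternatives were other scalings, filters and tests (DESeq2 1.42.0, limma 3.58.1), the replicate block, each library left out and an FDR of 0.01.

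The 9 genes, the gene lists and the tests were chosen with earlier results of these data known. Genes named are the 9, up to 4 called genes of each list, direct partners of the 9, and the 10 named genes most like them. The main fit does not use the replicate numbers. As both cultures of an animal were made together, a fit with the number as a block is given where it changes a call, but the sources do not say whether a number stands for 1 animal, and same-numbered libraries did not deviate together over 9394 genes (correlations -0.0322 to 0.0111).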

Additional observations from a re-analysis of the deposited data

Results flagged for a closer look

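In each group of 6 libraries the highest and the lowest value were compared with the rest by Dixon's test for single outlying values, for the 9 transcripts, their sum and 44 further genes that the report describes, 108 groups in all. In all, 30 were found, 18 of them in wmASTR replicate 4. For normal values chance gives about 1 in 20 groups, a rate that does not apply as such here, since CPM values are skewed and some of the genes were named because they follow the 9 transcripts, which peak in that library.

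In wmASTR replicate 4, *C1qa* was at 211.9 CPM where the next library was at 90.8 CPM. *C1qb* was at 22.9 CPM (next 9.32), *C1qc* at 23.2 CPM (next 10.3) and *Laptm5* at 92.2 CPM (next 46.8). The sum of the 9 transcripts was at 508 CPM (next 249.9). For *Cd68*, *Ncf1*, *Mmp12*, *Aif1* and *Irf8* this library was the highest of its group without passing the critical value. Of the genes associated with myeloid cells, it stood out for *Nckap1l* (14.6 CPM, next 5.78), *Pf4* (44.5 CPM, next 12.5), *Lyz2* (87.7 CPM, next 28.9), *Rac2* (3.17 CPM, next 1.11) and *Spp1* (685.9 CPM, next 215.1). Of the other genes, it stood out for *Tgfb2* (704.6 CPM, next 507.7), *Gfap* (10.6 CPM, next 2.58), *Il1rl1* (395.7 CPM, next 210.1), *Egfl7* (21.5 CPM, next 10.5), *Ccl7* (67.6 CPM, next 14.5), *Itga1* (304.5 CPM, next 136.1), *Myh11* (729.4 CPM, next 492.4) and *Tubb3* (37.0 CPM, next 17.5).

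Among gmASTRs, replicate 1 stood out for *Cd68* (6.50 CPM, next 2.25), *Spp1* (47.1 CPM, next 29.0), *Ccl7* (10.8 CPM, next 2.25) and *Mbp* (3.25 CPM, next 0.866). *Irf5* was at 14.2 CPM in replicate 2 (next 5.80), *Cfd* at 15.8 CPM (next 5.20) and *Tgfb1* at 15.5 CPM (next 9.60) in replicate 4, *Apoe* at 905.9 CPM in replicate 5 (next 394) and *Mag* at 0.498 CPM in replicate 6 (next 0.157). In the other wmASTR libraries, *Ttr* was at 375.7 CPM in replicate 1 (next 88.9), and *Cdh1* at 113.6 CPM (next 26.0) and *Syt1* at 11.2 CPM (next 4.16) in replicate 3.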

How the results depend on the processing

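The log2FC of the 9 transcripts was above 0 in all 174 values over the alternatives. For 8 of the 9, the list they were named from had fixed this direction. Of the 174 values, 166 stayed on the same side of the threshold and 8 lost the call (5 of *Aif1*, 2 of *C1qb*, 1 of *C1qc*). The number of the 9 that passed as higher in wmASTRs, 8, was 4 in the authors' filtered table, which holds 4 of them, 5 at an FDR of 0.01, and 5 to 8 with each library left out, lowest without wmASTR replicate 4. With the replicate number as a block it was 7. Over all genes, 662 passed as higher in wmASTRs and 535 as higher in gmASTRs, and 375 and 272 at an FDR of 0.01. With library totals only, without TMM, the balance turned to 594 and 688, while 8 of the 9 transcripts passed as before. Of the microglial list outside the 9, 1 gene (*Ctss*) passed, and 0 in the filtered table, which does not hold it, at an FDR of 0.01, and without gmASTR replicate 5 and wmASTR replicate 4 together; with each library left out it was 0 to 1. The median r of the 36 pairs in wmASTRs was 0.17 to 0.79 with each library left out, lowest without replicate 4, where the cause was not tested, and in gmASTRs it was 0.19 to 0.47, lowest without replicate 1. *Irf8* had 20 counts over all gmASTR libraries and 80 over all wmASTR libraries.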
